A study of Mus musculus with 4 samples.

Results

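Mature oligodendrocyte nuclei were followed in single-nucleus RNA counts of cortex and hippocampus. The mice were controls or had the gene of SEL1L, an ER-associated degradation (ERAD) factor, targeted for deletion in neurons. A nucleus was kept when it had over 600 genes and under 5% mitochondrial UMIs (unique molecular identifiers, the counts of captured RNA molecules). A kept nucleus was called a mature oligodendrocyte when at least 3 of Mog, Mag, Mobp, Aspa, Ermn, St18 and Cldn11 had a UMI, Pdgfra and Enpp6 had none, and Slc17a7, Gad1 and Gad2 together had at most 1. These criteria gave 3099 members among 36094 kept nuclei and 36619 deposited barcodes.

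Mature oligodendrocytes are the glia that wrap axons in myelin, a stack of membrane rich in lipid and in a small set of proteins such as myelin basic protein. They arise from oligodendrocyte precursor cells (OPCs) through a short newly formed stage, and in the mouse forebrain much of this happens in the first weeks after birth. Because they make so much membrane protein and lipid in the ER, they are known to be sensitive to ER stress, and their stress programs run through the unfolded protein response and the integrated stress response.

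The study compared 2 groups of 5-week-old mice, with 2 mice and 1 library per mouse in each group. By the labels and the study's description, all 4 mice carried the floxed Sel1L allele on both chromosomes (Sel1L flox/flox). The Sel1L Syn-Cre mice were described as also carrying a Cre driven by the Synapsin I promoter, which is meant for neurons and not for oligodendrocytes. Nuclei came from flash-frozen tissue, were stained with propidium iodide and sorted, and were counted with 10x 3′ chemistry, so a share of nuclei is a share of what was sorted and called. The libraries held 12362 and 8436 kept nuclei (Sel1L flox/flox replicates 1 and 2) and 8065 and 7231 (Sel1L Syn-Cre replicates 1 and 2), with 122716599, 76589308, 75144161 and 73992811 UMIs.

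One label has to be read with care. The Cre transgene is a feature of the count matrices, and over all kept nuclei it had 262 and 260 UMIs in the libraries labelled Sel1L Syn-Cre and 0 in the one labelled Sel1L flox/flox replicate 2, but 490 in the one labelled Sel1L flox/flox replicate 1. In mature oligodendrocyte nuclei Cre was close to absent, with 2 UMIs in the library labelled Sel1L flox/flox replicate 1 and 0 in each of the other libraries. OPC nuclei held it at 15.3 and 0 CPM (a gene's UMIs scaled to the UMI total of the class) in the libraries labelled Sel1L flox/flox and at 14.8 and 11.01 CPM in those labelled Sel1L Syn-Cre, from 27, 0, 17 and 10 UMIs, and neuron nuclei at 4.57, 0, 3.94 and 4.39 CPM. Values without that library are therefore given beside the main results.

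The targeted gene did not fall in these nuclei. Sel1l (GRCm38 chr12:91806043-91849157, minus strand), which encodes the adaptor of the HRD1 ubiquitin ligase, stood at 109 and 106 CPM in the libraries labelled Sel1L flox/flox and at 296 and 185 CPM in those labelled Sel1L Syn-Cre. Both Sel1L Syn-Cre libraries lay above both Sel1L flox/flox libraries, with a log2 fold change of 1.16 ± 0.21 (SE) and an adjusted p of 0.0423 by edgeR's quasi-likelihood test. Because the reads cover the 3′ end of transcripts, they carry no information on loss of the floxed exon. The call held without the library labelled Sel1L flox/flox replicate 1 (log2 fold change 1.18, adjusted p = 0.00209) and was lost without Sel1L Syn-Cre replicate 1 (0.77, adjusted p = 0.0668).

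The members matched their name on genes the criteria did not use. Mbp, the gene of myelin basic protein, had a UMI in 99.5% and 99.6% of members in the libraries labelled Sel1L flox/flox and in 99.7% of members in each labelled Sel1L Syn-Cre. Mal, a myelin membrane protein, was found in 72.8% and 66.7% of members in the former and in 55.1% and 47.8% in the latter. The same shares in neuron nuclei, which are several times deeper (median 12377 to 13268.5 UMIs against 2577 to 3280 in members), were 36.3% to 47.1% for Mbp and 0.889% to 7.13% for Mal, so a UMI of Mbp alone does not mark an oligodendrocyte here.

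How strongly a member carried the chosen markers varied. Of the 3099 members, 1239 had all 7 markers, 1087 had 6, 519 had 5, 195 had 4 and 59 had 3. The 59 members at the boundary had a median of 2129 UMIs, whereas the 297 nuclei with 2 markers that passed every other criterion had a median of 4689. The demand for no Enpp6, a gene of newly formed oligodendrocytes, removed the most nuclei: of those with 3 or more markers, 27.8% and 17.3% in the libraries labelled Sel1L flox/flox and 25.4% and 15.2% in those labelled Sel1L Syn-Cre had an Enpp6 UMI. Before any exclusion, nuclei with 3 or more markers were 19.3% and 16.2% of kept nuclei in the libraries labelled Sel1L flox/flox and 5.57% and 6.02% in those labelled Sel1L Syn-Cre. Barcodes were shared between libraries in 123 cases, 16 members carried such a barcode, and no barcode was a member in both libraries that held it.

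Mature oligodendrocyte nuclei were a smaller part of the Sel1L Syn-Cre libraries. The question here was whether the cells that make myelin are as common among the nuclei of the Sel1L Syn-Cre libraries. Whether Sel1l was lost in neurons only or also in the oligodendrocyte lineage, where OPC nuclei held Cre UMIs, was not tested. The 1469 members of the library labelled Sel1L flox/flox replicate 1 were 11.9% of its kept nuclei (95% Wilson interval 11.3% to 12.5%) and the 1018 of replicate 2 were 12.1% (11.4% to 12.8%). The 292 members of Sel1L Syn-Cre replicate 1 were 3.62% (3.23% to 4.05%) and the 320 of replicate 2 were 4.43% (3.98% to 4.92%). Both Sel1L Syn-Cre shares lay below both Sel1L flox/flox shares, and the group means were 11.98% ± 0.13 (SD, n = 2) and 4.02% ± 0.57 (SD, n = 2), a difference of -7.95 percentage points (-8.04 without the library labelled Sel1L flox/flox replicate 1). With 2 libraries against 2, the exact two-sided permutation test gave p = 0.33, which is the smallest p this design allows. The intervals cover counting error only.

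The same order was seen against other glia. Of the nuclei classed as mature oligodendrocyte, immature oligodendrocyte, OPC, astrocyte or microglia, members made up 46.8% and 45.8% in the libraries labelled Sel1L flox/flox and 17.0% and 28.7% in those labelled Sel1L Syn-Cre (exact permutation p = 0.33). There were 4.08 and 3.08 members per OPC nucleus in the former and 1.10 and 1.502 in the latter (exact permutation p = 0.33), so the groups did not overlap on this ratio. The difference in the share of glia was -23.5 percentage points, and -22.9 without the library labelled Sel1L flox/flox replicate 1, and the difference in members per OPC nucleus was -2.28 and -1.78. OPC nuclei themselves were 2.91% and 3.92% of kept nuclei in the libraries labelled Sel1L flox/flox and 3.30% and 2.95% in those labelled Sel1L Syn-Cre, with overlapping groups. Astrocyte nuclei were 8.30% of Sel1L Syn-Cre replicate 1 and between 2.23% and 3.29% of the other libraries, and the members' share of glia was lowest in that same library.

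The intermediate stage was also sparse in the Sel1L Syn-Cre libraries. Immature oligodendrocyte nuclei were defined by Enpp6 with oligodendrocyte markers, and chosen by UMI criteria that are not listed here. They numbered 134 and 64 in the libraries labelled Sel1L flox/flox (1.08% and 0.759% of kept nuclei) and 17 and 3 in those labelled Sel1L Syn-Cre (0.211% and 0.0415%). The groups did not overlap on this share. This class left out most nuclei with an Enpp6 UMI and 3 or more of the 7 markers. Those numbered 663 and 236 in the libraries labelled Sel1L flox/flox and 114 and 66 in those labelled Sel1L Syn-Cre. As a share of nuclei with 3 or more markers, they were 27.8% and 17.3% against 25.4% and 15.2%, with overlapping groups. Depth did not run with genotype among members, whose median UMIs were 3280 and 2577 in the libraries labelled Sel1L flox/flox and 2765.5 and 2629 in those labelled Sel1L Syn-Cre, an overlapping set (exact permutation p = 1). Signs of RNA quality did move with genotype: the members' median share of mitochondrial UMIs was 0.115% and 0.122% in the former and 0.0654% and 0.0927% in the latter, and their median share of Malat1, a nuclear RNA, was 12.01% and 15.03% against 15.93% and 15.19%. The groups did not overlap on either measure, and their part in the other results was not tested. When nuclei were thinned to 1500 UMIs before they were classed, the shares were 14.5% and 12.96% against 4.06% and 4.50%. This step left out 393 and 328 kept nuclei of the libraries labelled Sel1L flox/flox and 306 and 188 of those labelled Sel1L Syn-Cre.

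**Figure D1:**
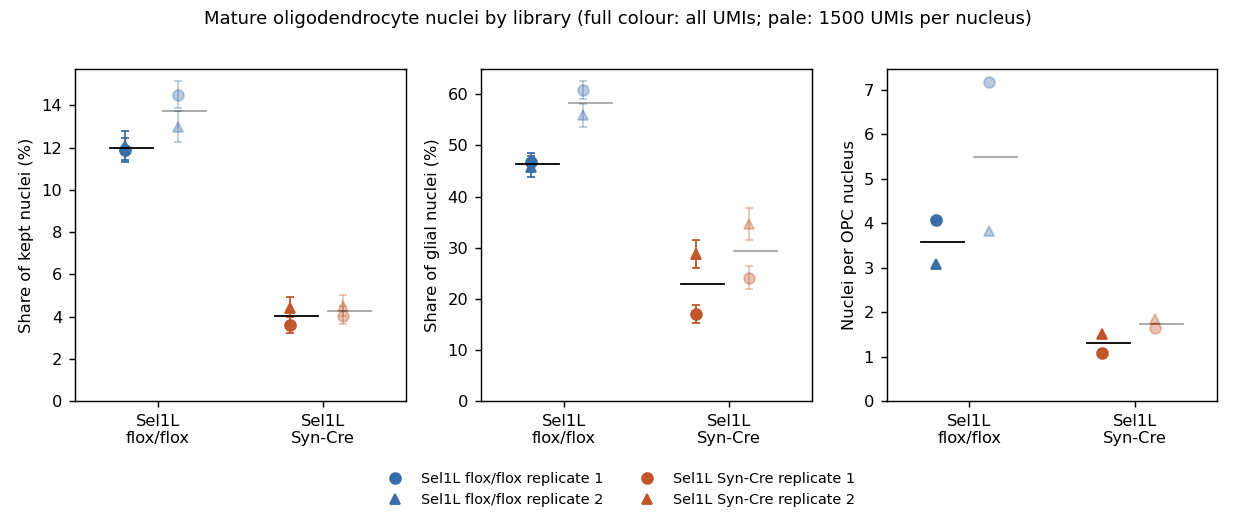
Mature oligodendrocyte nuclei as a percentage of kept nuclei (left), as a percentage of glial nuclei (middle) and per OPC nucleus (right), 1 point per library, with 95% Wilson intervals for the shares and a black line at each group mean. Full colour shows the nuclei as deposited and pale colour the nuclei thinned to 1500 UMIs, and in every panel both Sel1L Syn-Cre libraries sit below both libraries labelled Sel1L flox/flox.

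Within the members, UMIs were summed per library, which gave 5808836 and 3253487 UMIs for the libraries labelled Sel1L flox/flox and 1019387 and 1000836 for those labelled Sel1L Syn-Cre. Of 11900 genes tested, 70 were higher in Sel1L Syn-Cre (0.588%) and 19 were lower (0.16%) at an adjusted p below 0.05, with a median log2 fold change of 0.01 over all genes tested. In 89 of 89 called genes the groups did not overlap, but this held for 41.3% of all genes tested as well. Without the library labelled Sel1L flox/flox replicate 1 the fit called 104 genes higher and 52 lower, and 71 of the 89 genes were again called, with the direction kept in 89 of 89. The counts were 168 and 98 without Sel1L flox/flox replicate 2, 139 and 110 without Sel1L Syn-Cre replicate 1, and 75 and 9 without Sel1L Syn-Cre replicate 2. Every CPM value given with a fold change is scaled by TMM (trimmed mean of M values), and SE is that of the log2 fold change.

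Among called genes with at least 50 UMIs, those with the largest rises were led by stress genes. Nupr1 (GRCm38 chr7:126623249-126630861, minus strand), a small nuclear protein induced under cell stress, had 5 and 4 UMIs in the libraries labelled Sel1L flox/flox and 48 and 85 in those labelled Sel1L Syn-Cre, which is 0.879 and 1.26 CPM against 48.0 and 82.6 CPM. Its log2 fold change was 5.94 ± 0.40, with an adjusted p of 0.00024 in edgeR's test and a range of 5.49 to 6.27 when 1 library was left out. Derl3, a Derlin of the ERAD retrotranslocation machinery, stood at 0.352 and 0.632 CPM against 45.0 and 7.78 CPM, from 2, 2, 45 and 8 UMIs, with a log2 fold change of 5.72 ± 0.86 (adjusted p = 0.0181 by edgeR). The level in Sel1L Syn-Cre replicate 1 was far above that in replicate 2 for this gene.

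For Cdkn1a, the gene of the cell cycle inhibitor p21, the order of the Sel1L Syn-Cre libraries was the opposite. It stood at 0.703 and 0.316 CPM in the libraries labelled Sel1L flox/flox and at 9.01 and 41.8 CPM in those labelled Sel1L Syn-Cre, with a log2 fold change of 5.397 ± 0.78 (adjusted p = 0.0161 by edgeR). Hif3a, a hypoxia-inducible factor subunit, also was highest in Sel1L Syn-Cre replicate 2, at 3.69 and 16.8 CPM against 68.1 and 229 CPM (4.03 ± 0.61, and 2.90 to 5.31 with 1 library left out). Zfand4, a zinc finger protein of the AN1 type, stood at 15.6 and 21.5 CPM against 59.0 and 301 CPM, and its log2 fold change of 3.31 ± 0.55 fell to 1.69 without Sel1L Syn-Cre replicate 2. Gli2, a transcription factor of Hedgehog signaling, stood at 3.69 and 11.1 CPM against 36.0 and 114 CPM (3.49 ± 0.54). Across the 70 higher genes, 50 were higher in Sel1L Syn-Cre replicate 2 than in replicate 1 and 20 the other way. With DESeq2 the calls for Hif3a (adjusted p = 0.128), Gli2 (0.115) and Zfand4 (0.15) were lost, at log2 fold changes of 3.85, 3.34 and 3.26. The fit without the library labelled Sel1L flox/flox replicate 1 called the 6 genes described so far, with log2 fold changes of 5.61 for Nupr1, 5.22 for Derl3, 6.04 for Cdkn1a, 3.14 for Hif3a, 3.06 for Zfand4 and 2.75 for Gli2.

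The other large rises were Clic5, a chloride intracellular channel protein (log2 fold change 4.50 ± 0.40), Col5a3, a collagen V chain (3.31 ± 0.34), and the noncoding genes 1700042O10Rik (3.30 ± 0.44) and Gm22146 (3.07 ± 0.47). Clic5 stood at 1.58 and 1.26 CPM against 28.0 and 39.8 CPM, with little difference between the libraries of a group. When the library labelled Sel1L flox/flox replicate 1 was left out, the log2 fold changes were 4.67 for Clic5, 3.47 for Col5a3, 2.77 for 1700042O10Rik and 2.24 for Gm22146, each called. The gene 1700042O10Rik overlaps Ddc and Gm22146 overlaps Fkbp5, each on the opposite strand. Ddc and Fkbp5 also rose. Use of strand in counting is not given in the sources used here, and whether reads of these pairs were kept apart was not tested.

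**Figure D2:**
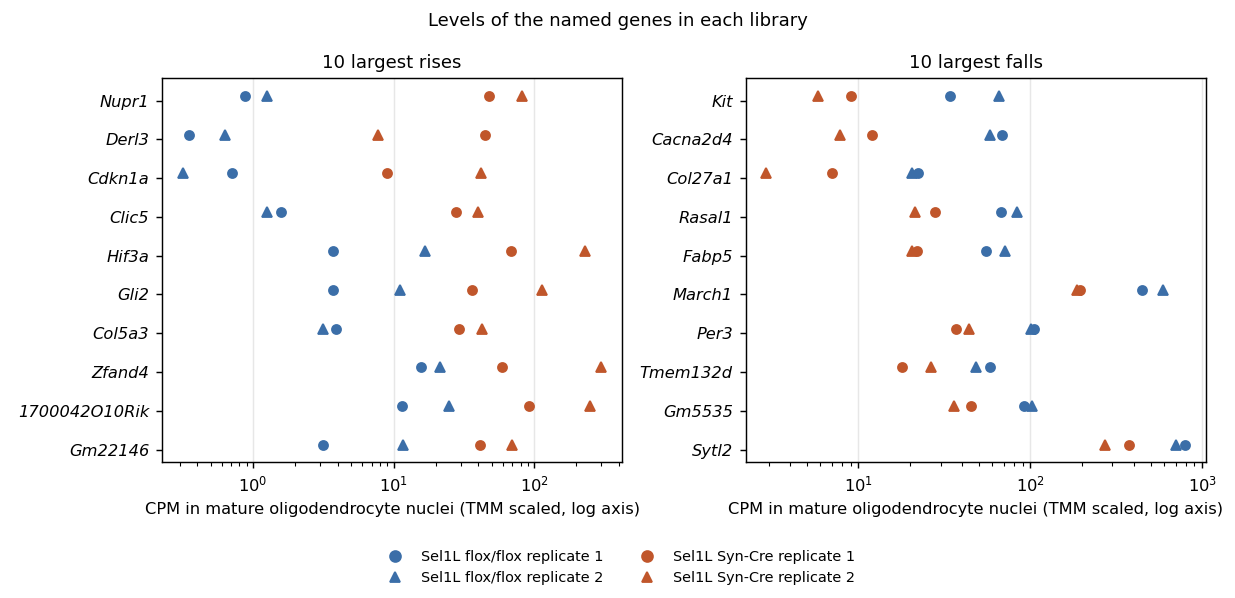
TMM-scaled CPM, on a log axis, of the 10 largest rises and the 10 largest falls among called genes with at least 50 UMIs. Values are from mature oligodendrocyte nuclei, 1 point per library (circle for replicate 1, triangle for replicate 2). The points of the 2 groups do not overlap for any of the 20 genes, and Derl3, Cdkn1a, Hif3a, Gli2 and Zfand4 show wide gaps between the 2 Sel1L Syn-Cre libraries.

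The largest fall among called genes with at least 50 UMIs was that of Kit, a receptor tyrosine kinase. Kit stood at 34.3 and 65.7 CPM in the libraries labelled Sel1L flox/flox and at 9.01 and 5.83 CPM in those labelled Sel1L Syn-Cre, with a log2 fold change of -2.72 ± 0.45 (adjusted p = 0.0286 by edgeR). Cacna2d4, an accessory subunit of voltage-gated calcium channels, stood at 68.2 and 57.8 CPM against 12.01 and 7.78 CPM (-2.68 ± 0.28, adjusted p = 0.00421). Each Sel1L Syn-Cre library lay well below both Sel1L flox/flox libraries for these genes. The call for Kit was lost without Sel1L Syn-Cre replicate 2 (log2 fold change -2.45, adjusted p = 0.0553). In the fit without the library labelled Sel1L flox/flox replicate 1 both fell, Kit by 3.14 and Cacna2d4 by 2.55 on the log2 scale. Kit also missed with equal numbers of nuclei (-2.68, adjusted p = 0.0527) and with at least 5 markers and no neuron UMI required (-2.77, 0.0899). It missed as well without nuclei holding other cell types' markers (-2.81, 0.059), while Cacna2d4 passed in each of these fits.

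March1, a membrane-bound ubiquitin ligase, was among the more abundant genes that fell. It stood at 448 and 588 CPM against 195 and 188 CPM, with a log2 fold change of -1.44 ± 0.18 (adjusted p = 0.00988 by edgeR), and -1.62 without the library labelled Sel1L flox/flox replicate 1. Sytl2, a synaptotagmin-like protein of vesicle transport, stood at 794 and 700 CPM against 372 and 272 CPM (-1.21 ± 0.19), and Fabp5, a fatty acid binding protein, at 55.0 and 71.4 CPM against 22.02 and 20.4 CPM (-1.56 ± 0.24). Rasal1, a Ras GTPase activator, fell by 1.61 on the log2 scale, Per3, a period protein of the molecular clock, by 1.35, the collagen gene Col27a1 by 2.12, the membrane protein gene Tmem132d by 1.27 and the noncoding gene Gm5535 by 1.25. Of these, Col27a1 lost its call without the library labelled Sel1L flox/flox replicate 1 (adjusted p = 0.0571) and without Sel1L Syn-Cre replicate 2 (0.17), Gm5535 (0.0522) and Sytl2 (0.0571) without Sel1L Syn-Cre replicate 2, and Tmem132d without Sel1L Syn-Cre replicate 1 (0.0887). DESeq2 did not call Col27a1 (0.15) or Tmem132d (0.127). Rasal1 and Fabp5 missed with equal numbers of nuclei (0.07 and 0.0939) and with at least 5 markers and no neuron UMI required (0.0896 and 0.0899). Without nuclei holding other cell types' markers, Rasal1 (0.0654), Fabp5 (0.059) and Per3 (0.0589) missed.

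Myelin protein genes were described from a list of 39 genes that left out the markers used to choose the members. Of 38 tested, 0 rose and 3 fell, beside 0.16% of all genes that fell, and the median log2 fold change was -0.40 beside 0.01 for all genes. Lower levels of the list were also found in nuclei of other classes. When other classes were fitted by themselves, 7 of 29 tested genes of the list fell in OPC nuclei (median -0.67), beside 1.59% of all genes. In astrocyte nuclei 4 of 28 fell (-0.52), beside 0.351%, and in neuron nuclei 3 of 36 (-0.24), beside 0.0513%. The markers that chose the members had medians of -2.22 in OPC, -2.03 in astrocyte and -1.38 in neuron nuclei. The number of members per library moved with genotype too. The part of stray member RNA in the falls of other classes was not tested, so these do not show lower expression within those cells. Opalin (GRCm38 chr19:41061710-41077113, minus strand), a transmembrane protein of myelin, stood at 588 and 639 CPM in the libraries labelled Sel1L flox/flox and at 337 and 206 CPM in those labelled Sel1L Syn-Cre. Its log2 fold change was -1.18 ± 0.22, with an adjusted p of 0.0455 in edgeR's test. Pllp (plasmolipin) fell by 0.98 and Tmem88b by 0.97 on the log2 scale, and the groups did not overlap for either.

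Mbp and Mal did not pass the test. Mbp stood at 6333 and 5742 CPM against 5415 and 4557 CPM (log2 fold change -0.28 ± 0.19, adjusted p = 0.679) and Mal at 529 and 548 CPM against 333 and 294 CPM (-0.78 ± 0.16, adjusted p = 0.0656), both by edgeR. Each was lower in both Sel1L Syn-Cre libraries. Hapln2, a link protein at nodes of Ranvier, lay the other way, at 218 and 241 CPM against 273 and 377 CPM (0.50 ± 0.19, adjusted p = 0.356). Of the myelin protein list, 11 genes fell with the replicate number as a block, 12 of 39 with every gene of at least 1 count tested, 0 of 38 with the stricter membership (at least 5 markers and no neuron UMI), 1 of 37 with equal numbers of nuclei, and 0 of 38 without nuclei holding other cell types' markers, with medians between -0.35 and -0.48. In leave-one-out fits, 4 genes fell without the library labelled Sel1L flox/flox replicate 1, 6 fell and 1 rose without Sel1L flox/flox replicate 2, and 5 fell without Sel1L Syn-Cre replicate 1. Without Sel1L Syn-Cre replicate 2, 0 of 38 myelin protein genes passed, and the adjusted p of Opalin was 0.112, of Pllp 0.0839 and of Tmem88b 0.0682. Tmem88b also missed without Sel1L Syn-Cre replicate 1 (0.0808) and with DESeq2 (0.15).

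The markers that chose the members are given as a description only. St18, a transcription factor gene of the lineage, stood at 3684 and 3021 CPM in the libraries labelled Sel1L flox/flox and at 2531 and 1854 CPM in those labelled Sel1L Syn-Cre. Mog stood at 1387 and 1694 CPM against 1136 and 1012 CPM, and Mag at 890 and 1031 CPM against 806 and 628 CPM. Mobp was the marker with the opposite order, at 1627 and 1470 CPM against 2346 and 1765 CPM.

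Genes for myelin lipids, for cholesterol synthesis and for the regulators of the lineage did not pass the test with all libraries. For myelin lipid synthesis, 0 of 25 tested genes rose and 0 fell (median log2 fold change -0.27), with 0 higher and 7 lower at an unadjusted p below 0.05, a level that 5.78% of all genes passed as higher and 4.55% as lower. Ugt8a, the galactosyltransferase that makes cerebroside, stood at 826 and 649 CPM against 499 and 477 CPM (-0.59 ± 0.18, adjusted p = 0.216 by edgeR). For cholesterol synthesis, 0 of 27 passed (median -0.04, with 0 higher and 2 lower at an unadjusted p below 0.05). Among 28 transcription regulators 0 passed (median -0.16, with 0 higher and 4 lower at an unadjusted p below 0.05). Some fits called falls in the lipid and regulator lists. Of myelin lipid genes, 3 fell with the replicate number as a block, 4 of 26 with every gene of at least 1 count tested and 1 of 26 without Sel1L Syn-Cre replicate 1. Of the regulators, 1 fell with DESeq2, with the block and without either library labelled Sel1L flox/flox, 2 of 29 fell without Sel1L Syn-Cre replicate 1 and 3 of 30 with every gene of at least 1 count tested. Myrf, the factor that switches on myelin genes, stood at 140 and 133 CPM against 138 and 156 CPM, an overlapping set.

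Few genes of maturation stages passed the test, which 0.588% of all genes passed as higher and 0.16% as lower. Of 26 tested genes of newly formed oligodendrocytes, 1 rose and 1 fell, with a median of -0.27, 20 genes below 0, and 1 higher and 6 lower at an unadjusted p below 0.05. The median of the list was -0.52 in the fit that left out Sel1L Syn-Cre replicate 1 and -0.12 in the one that left out Sel1L Syn-Cre replicate 2. The riser was Itpr2, an inositol trisphosphate receptor and a marker of that stage, at 24.3 and 19.0 CPM against 54.0 and 50.5 CPM (log2 fold change 1.25 ± 0.22, adjusted p = 0.0333 by edgeR), and the faller was Sytl2. DESeq2 did not call Itpr2 (adjusted p = 0.0986). With the nuclei that Scrublet marked as doublets left out, 0 of 26 genes of this list rose and 1 fell. In the fit without the library labelled Sel1L flox/flox replicate 1, 2 of 25 genes of this list rose and 1 fell, and with the stricter membership 0 passed. Bcas1, another gene of the stage, stood at 741 and 682 CPM against 684 and 593 CPM. Of 27 tested genes of late mature oligodendrocytes, 2 rose, Selenop (a secreted selenoprotein, 1.44 ± 0.20) and Mt1 (metallothionein 1, 1.14 ± 0.20), and 1 fell, Car2 (carbonic anhydrase 2, -0.84 ± 0.16, adjusted p = 0.0499). Of these 27 genes, 18 lay below 0, and 5 were higher and 7 lower at an unadjusted p below 0.05 (median -0.13). The call for Car2 was lost without the library labelled Sel1L flox/flox replicate 2 (0.0549), Sel1L Syn-Cre replicate 1 (0.104) or Sel1L Syn-Cre replicate 2 (0.0772). When the library labelled Sel1L flox/flox replicate 1 was left out, 1 of 26 genes of the late list rose and 2 fell, with the call for Mt1 lost (0.0646), and with the stricter membership 0 of 26 passed. Among 26 genes of axon support and transport 0 passed (median -0.11, with 2 higher and 3 lower at an unadjusted p below 0.05). In other fits of this list, 1 of 30 genes fell with DESeq2, and 1 of 26 rose and 1 fell with the replicate number as a block. With every gene of at least 1 count tested, 2 of 30 rose and 2 fell. Every fit with 1 library left out also called genes of this list. Its median was -0.04 and -0.05 without the libraries labelled Sel1L flox/flox replicates 1 and 2, and -0.15 and -0.03 without Sel1L Syn-Cre replicates 1 and 2.

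The integrated stress response, in which kinases slow translation and the factor ATF4 switches on amino acid and repair genes, had 10 calls with all libraries in edgeR's test. Of 24 genes tested, 10 rose and 0 fell, beside 0.588% of all genes that rose, and the median log2 fold change was 0.88. The transcription factor genes Nupr1, Atf5 (6.15 and 5.37 CPM against 38.0 and 27.2 CPM, log2 fold change 2.47 ± 0.31), Ddit3, which encodes CHOP (13.01 and 11.4 CPM against 40.03 and 38.9 CPM, 1.68 ± 0.24), and Cebpg (1.02 ± 0.18) rose. So did Asns, which makes asparagine (6.15 and 6.64 CPM against 20.02 and 28.2 CPM, 1.92 ± 0.33), Slc7a1, a transporter of cationic amino acids (1.87 ± 0.34), and Mthfd2, a mitochondrial folate enzyme (1.06 ± 0.19). The tRNA ligase genes Sars, Yars and Nars rose by 0.88, 0.89 and 0.88. For Atf5, Ddit3 and Asns the values of each group lay close together.

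Atf4 itself stood at 26.0 and 24.97 CPM against 23.0 and 18.5 CPM in the members (log2 fold change -0.30 ± 0.25, adjusted p = 0.75 by edgeR). The calls for Nupr1, Atf5 and Ddit3 held with any 1 library left out. Without Sel1L Syn-Cre replicate 2, Asns (0.168), Slc7a1 (0.112), Cebpg (0.0636), Sars (0.112), Yars (0.0616) and Nars (0.105) missed the threshold. Without Sel1L Syn-Cre replicate 1, Mthfd2 (0.104) and Yars (0.0933) did, and without the library labelled Sel1L flox/flox replicate 1, Cebpg (0.0794), Sars (0.0623), Yars (0.0827) and Nars (0.134) did. In that last fit 6 of 23 genes of the list rose, and without Sel1L Syn-Cre replicate 2 the count was 5 of 26. With DESeq2 the count was 3 of 34, with Asns, Slc7a1, Mthfd2, Nars, Sars, Yars and Cebpg no longer called. It was 4 of 21 with equal numbers of nuclei, 1 of 23 with the stricter membership (at least 5 markers and no neuron UMI) and 3 of 23 without nuclei holding other cell types' markers, while the median stayed between 0.78 and 0.92 in these fits. The file pairs the symbol Ddit3 with more than one gene ID, and the values are those of the ID ENSMUSG00000025408.

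ER chaperones and genes of the unfolded protein response rose in 4 of 29 cases and fell in 0, beside 0.588% of all genes that rose. The median log2 fold change of the list was 0.63. Hspa5, which encodes the ER chaperone BiP, stood at 41.1 and 38.9 CPM in the libraries labelled Sel1L flox/flox and at 211 and 95.2 CPM in those labelled Sel1L Syn-Cre, with a log2 fold change of 1.93 ± 0.30 (adjusted p = 0.0181 by edgeR). Dnajc3, a BiP co-chaperone, stood at 65.0 and 61.6 CPM against 159 and 119 CPM (1.13 ± 0.18), Sdf2l1, an ER luminal co-chaperone, at 1.93 and 0.632 CPM against 21.0 and 9.72 CPM (3.37 ± 0.58), and Ddit3 was the fourth. Hsp90b1, the gene of GRP94, stood at 83.1 and 70.2 CPM against 314 and 119 CPM and did not pass (1.49 ± 0.34, adjusted p = 0.0992). Each of the 4 that rose was higher in Sel1L Syn-Cre replicate 1 than in replicate 2, and without replicate 1 the log2 fold change of Hspa5 was 1.23. The list's count of risers moved with the libraries used, to 10 of 29 without the library labelled Sel1L flox/flox replicate 1, 9 without Sel1L flox/flox replicate 2, 11 without Sel1L Syn-Cre replicate 2 and 3 without Sel1L Syn-Cre replicate 1, where the median was 0.37. It was 8 of 30 with DESeq2, 0 of 28 with the stricter membership and 1 of 28 without nuclei holding other cell types' markers, with medians of 0.59, 0.66 and 0.67. With the replicate number as a block it was 10 of 29 (median 0.63), and with every gene of at least 1 count tested 11 of 30 (0.55).

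In the ERAD list 4 of 27 genes rose and 0 fell, beside 0.588% of all genes that rose. The 4 were Sel1l, Derl3, Herpud1 and Sdf2l1, and the list's median log2 fold change was 0.13. Herpud1, an ER membrane protein that binds HRD1, stood at 48.0 and 44.9 CPM against 146 and 97.2 CPM (1.38 ± 0.21, adjusted p = 0.0181 by edgeR). Syvn1, the gene of HRD1, stood at 13.2 and 10.4 CPM against 32.0 and 14.6 CPM (0.95 ± 0.36, adjusted p = 0.38), and Os9, a lectin of the complex, at 45.0 and 45.8 CPM against 47.0 and 56.4 CPM. As in the chaperone list, all 4 called genes were higher in Sel1L Syn-Cre replicate 1. The call for Sdf2l1 was lost without the library labelled Sel1L flox/flox replicate 2 (0.107) and without Sel1L Syn-Cre replicate 1 (0.175), a fit in which 1 of 26 genes of the list rose and the median was -0.01. The count was 4 of 27 without the library labelled Sel1L flox/flox replicate 1. With the stricter membership, and without nuclei holding other cell types' markers, 0 of 27 rose. The log2 fold changes in these fits were 1.20 and 1.16 for Sel1l, 5.56 and 5.43 for Derl3, 1.38 and 1.27 for Herpud1, and 3.28 and 3.52 for Sdf2l1. Derl3 was not tested without Sel1L Syn-Cre replicate 1, its high library.

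Glucocorticoid-responsive genes were the other list with a high count. Of 26 tested, 7 rose and 0 fell, beside 0.588% of all genes that rose, and the median log2 fold change was 0.89. That median was 0.51 without Sel1L Syn-Cre replicate 2 and 1.23 without Sel1L Syn-Cre replicate 1. Fkbp5, a co-chaperone that dampens the glucocorticoid receptor, stood at 33.6 and 74.0 CPM in the libraries labelled Sel1L flox/flox and at 277 and 472 CPM in those labelled Sel1L Syn-Cre (2.83 ± 0.35, adjusted p = 0.00988 by edgeR). Sgk1, a kinase induced by glucocorticoids and by stress, stood at 44.5 and 137 CPM against 399 and 632 CPM (2.53 ± 0.42, adjusted p = 0.0287). Its log2 fold change was 1.91 without the library labelled Sel1L flox/flox replicate 1 and 3.53 without Sel1L flox/flox replicate 2. Pdk4, a brake on pyruvate dehydrogenase (2.64 ± 0.47), Arl4d, a small GTPase (2.61 ± 0.44), Cdkn1a, Hif3a and Mt1 also rose.

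All 7 of these genes were higher in Sel1L Syn-Cre replicate 2 than in replicate 1, the opposite of the chaperone and ERAD genes. Zbtb16 (73.6 and 244 CPM against 328 and 559 CPM, log2 fold change 1.49 ± 0.44, adjusted p = 0.208) and Plin4 (2.64 and 16.7 CPM against 37.0 and 150 CPM, 3.47 ± 0.70, adjusted p = 0.0543) had the same order of libraries and did not pass. Tsc22d3 (GILZ) stood at 178 and 164 CPM against 209 and 142 CPM, an overlapping set. Without Sel1L Syn-Cre replicate 2, 3 of 26 genes of the list rose, and without replicate 1, 11 of 27 did. Without the library labelled Sel1L flox/flox replicate 1, 7 of 26 rose and without Sel1L flox/flox replicate 2, 13 of 26 did. Without the library labelled Sel1L flox/flox replicate 1, Mt1 (adjusted p = 0.0646) and Arl4d (0.24) missed the threshold. Arl4d also missed without the library labelled Sel1L flox/flox replicate 2 (0.177) and, like Pdk4 (0.307) and Mt1 (0.0839), without Sel1L Syn-Cre replicate 2 (0.227). Cdkn1a was not tested without Sel1L Syn-Cre replicate 2, its high library. DESeq2 called 5 of 29 genes of the list and did not call Sgk1 (adjusted p = 0.136), Hif3a (0.128) or Arl4d (0.059). With the stricter membership 1 of 25 rose, and without nuclei holding other cell types' markers 2 of 23 did, with medians of 0.80 and 0.97.

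Among one-carbon metabolism genes, 2 of 23 rose and 0 fell, beside 0.588% of all genes that rose, with a median of 0.26. Mat2a, which makes S-adenosylmethionine, stood at 265 and 362 CPM against 761 and 866 CPM (log2 fold change 1.38 ± 0.19, adjusted p = 0.0146 by edgeR), and Mthfd2 was the other. The count was 2 of 20 without the library labelled Sel1L flox/flox replicate 1, 1 of 31 with DESeq2, 1 of 21 without nuclei holding other cell types' markers and 0 of 22 with the stricter membership, where Mat2a stood at 1.44 (adjusted p = 0.0542). Phgdh, the entry enzyme of serine synthesis, stood at 52.2 and 61.9 CPM against 85.1 and 96.2 CPM (0.67 ± 0.18, adjusted p = 0.149). Of 17 tested genes in a list of stress and immune genes described in diseased oligodendrocytes, 3 rose (Sgk1, Nupr1 and Ddit3) and 0 fell, beside the same 0.588%. With the stricter membership 1 of 16 rose, with DESeq2 2 of 30 did, and without the library labelled Sel1L flox/flox replicate 1 4 of 16 rose and 1 fell. C4b and Serpina3n, the hallmark genes of that state, were too low to be tested.

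**Figure D3:**
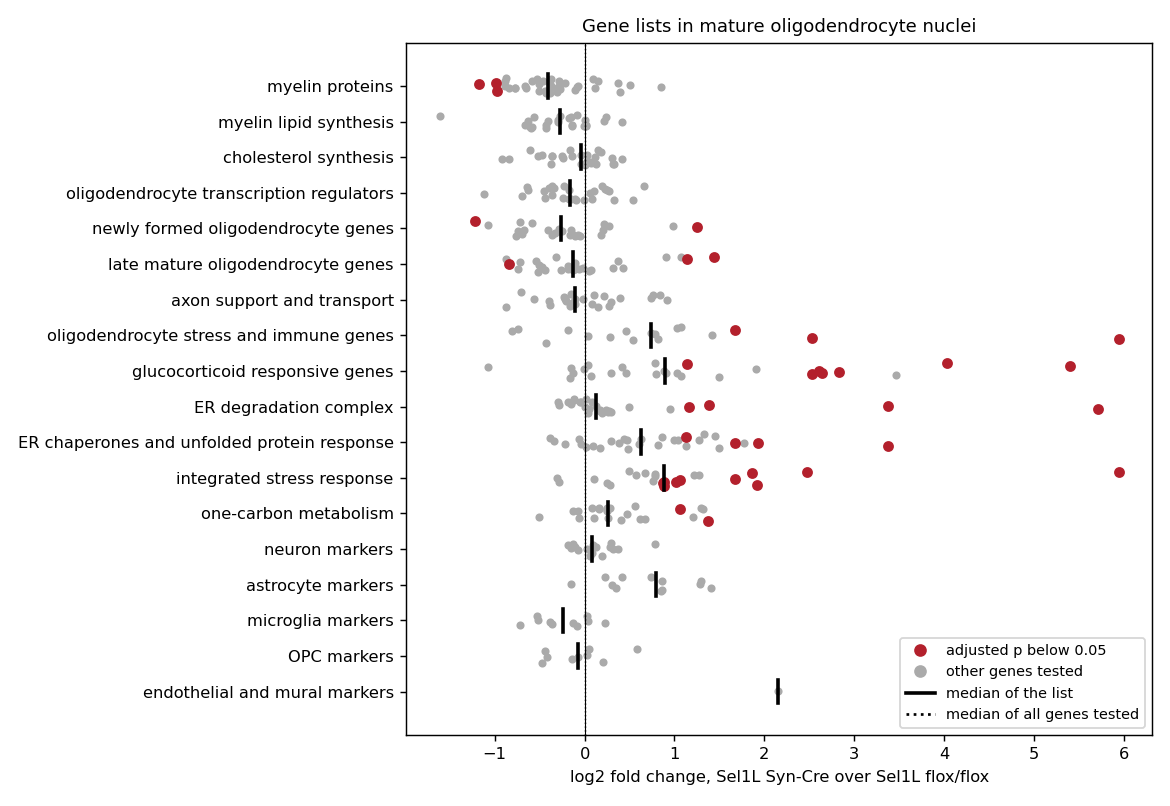
Log2 fold changes (Sel1L Syn-Cre over Sel1L flox/flox) of the tested genes of each list in mature oligodendrocyte nuclei, with red points for an adjusted p below 0.05, a black bar at the list's median and a dotted line at the median of all 11900 genes, 0.01. The integrated stress response (10 of 24) and glucocorticoid-responsive (7 of 26) lists hold the most red points to the right, and the myelin protein list holds 3 to the left.

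Promoters were searched for 3 short motifs that are known for these programs, in RefSeq windows (GRCm38.p6) from 250 bases before to 50 bases after each transcript start. Both strands were read, and a match is a description of the sequence only. The first motif was the ER stress response element, CCAAT followed by any 9 bases and CCACG, present in 0.119% of all 32851 windows and in a window of 0.137% of genes. Of the 70 higher genes, 57 had a window, and 3 of them held this motif: Hspa5, Dnajc3 and Derl3. Their stretches follow, each 5′ to 3′ on the strand of the gene, with the match in capitals, since these 3 genes share the motif and rose together.
Hspa5 promoter, chr2:34772010-34772058, plus strand: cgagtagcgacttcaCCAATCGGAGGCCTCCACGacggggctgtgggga
Dnajc3 promoter, chr14:118937812-118937860, plus strand: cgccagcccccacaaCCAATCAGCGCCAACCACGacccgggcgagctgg
Derl3 promoter, chr10:75893227-75893275, plus strand, with the motif on the opposite strand: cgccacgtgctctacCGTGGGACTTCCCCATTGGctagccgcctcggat

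The second motif was the amino acid response element TGATGNAA, present in 3.97% of all windows and in a window of 4.51% of genes, and in 9 of the 57 higher genes with a window. Within the integrated stress response list, 3 of the 9 risers with a window held it (Asns, Nupr1 and Yars), and Herpud1 held it in the ERAD list. Asns and Nupr1 are shown because they are among the list's larger rises, and Herpud1 because its match reads the same letters as that of Nupr1.
Asns promoter, chr6:7693210-7693247, minus strand: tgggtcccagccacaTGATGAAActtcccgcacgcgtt
Nupr1 promoter, chr7:126625558-126625595, minus strand, with the motif on the opposite strand: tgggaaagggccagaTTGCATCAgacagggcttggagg
Herpud1 promoter, chr8:94386302-94386339, plus strand, with the motif on the opposite strand: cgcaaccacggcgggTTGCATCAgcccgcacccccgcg

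The third motif was the glucocorticoid response element, GNACA followed by any 3 bases and TGTNC, which reads alike on both strands and was present in 0.475% of all windows and in a window of 0.537% of genes. Of the 57 higher genes with a window, 4 held it (Fam107a, Map7d2, Mt1 and Sgk1). The calls for Fam107a (adjusted p = 0.197) and Mt1 (0.0646) were lost without the library labelled Sel1L flox/flox replicate 1. Of the 7 glucocorticoid-responsive genes that rose, 7 had a window and 2 held the motif, Sgk1 (in 1 of its alternative promoters) and Mt1. Among the 19 genes that fell, 11 had a window, and 0 held the first or second motif while 1, Eml1, held the third, a gene whose call was lost without that library (0.0571).
Sgk1 promoter, chr10:21993687-21993729, plus strand: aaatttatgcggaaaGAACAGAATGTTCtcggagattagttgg
Mt1 promoter, chr8:94178980-94179022, plus strand: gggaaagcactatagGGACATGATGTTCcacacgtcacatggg

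The shares of nuclei with a UMI showed how the changes were spread over nuclei, here after nuclei were thinned to 1500 UMIs. This step left out 29 and 61 members of the libraries labelled Sel1L flox/flox and 15 and 12 of those labelled Sel1L Syn-Cre. Opalin was found in 54.7% and 56.3% of members in the libraries labelled Sel1L flox/flox and in 35.4% and 20.1% in those labelled Sel1L Syn-Cre, beside 0.0953% to 0.409% of neuron nuclei. Sgk1 was found in 6.32% and 19.2% of members against 41.5% and 60.7%, and Fkbp5 in 4.65% and 10.7% against 34.3% and 51.3%. Nupr1 was found in 0.208% and 0.209% against 6.86% and 9.74%, so most Sel1L Syn-Cre members had no Nupr1 UMI at this depth. Without thinning the Nupr1 shares were 0.272%, 0.295%, 13.01% and 18.8%. In neuron nuclei of the Sel1L Syn-Cre libraries the thinned Nupr1 share was 0.722% and 0.477%, well below that of members of the same libraries. Sgk1 in neuron nuclei lay between 12.9% and 14.4% in all 4 libraries, so the members of the libraries labelled Sel1L flox/flox had shares on both sides of it.

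**Figure D4:**
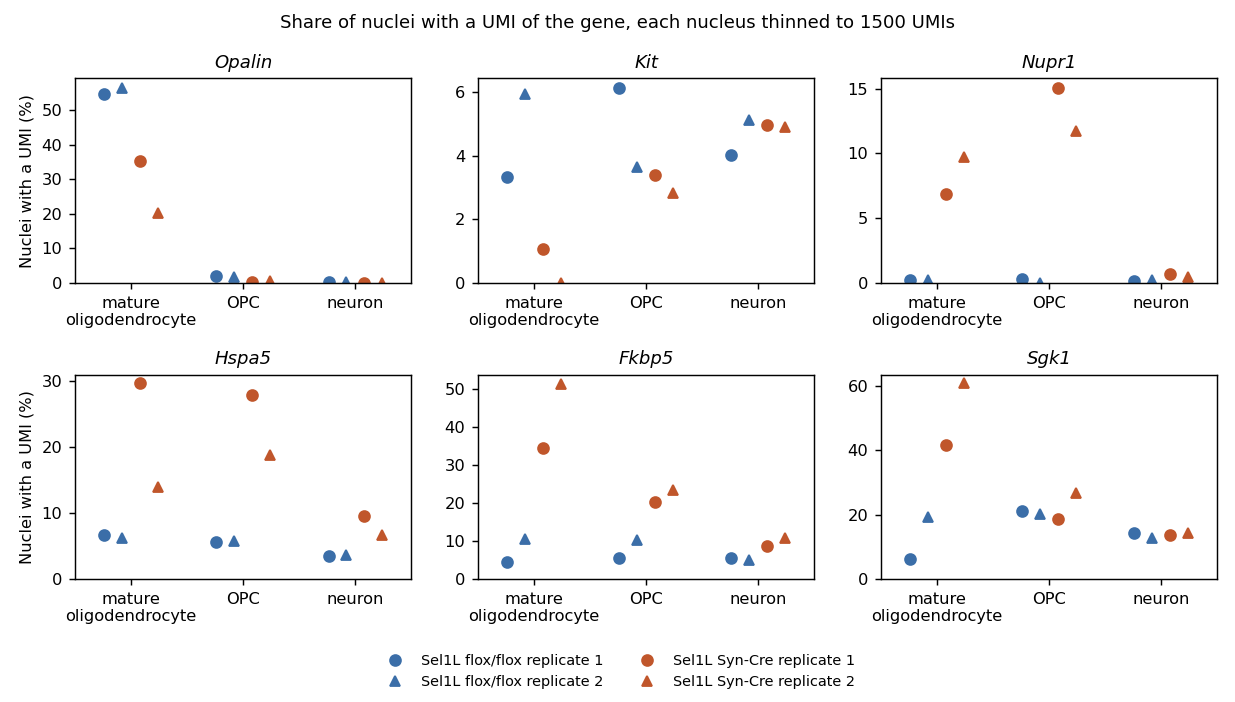
Percentage of mature oligodendrocyte, OPC and neuron nuclei with at least 1 UMI of Opalin, Kit, Nupr1, Hspa5, Fkbp5 and Sgk1 after thinning to 1500 UMIs, 1 point per library (blue, labelled Sel1L flox/flox; orange, Sel1L Syn-Cre). Opalin falls in members, Nupr1 and Hspa5 are higher in members and OPC nuclei of the Sel1L Syn-Cre libraries, and Sgk1 is higher in members of those libraries, with 41.5% and 60.7% against 6.32% and 19.2%.

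To see where members differed from other cells of the same mice, the genotype effect was tested against that in OPC, astrocyte and neuron nuclei with an interaction term. The effect differed between members and OPC nuclei for 85 of 12055 genes (0.705%), between members and neuron nuclei for 200 of 19113 (1.05%) and between members and astrocyte nuclei for 46 of 12169 (0.378%). The change in members was the lower one for 0.265%, 0.392% and 0.115% of genes and the higher one for 0.44%, 0.654% and 0.263%. Each class comparison uses the same 4 libraries, so they share their mice. Without the library labelled Sel1L flox/flox replicate 1 the counts were 61, 115 and 5, and without Sel1L Syn-Cre replicate 2 the neuron count was 89 and the astrocyte count 187. The astrocyte count was 116 without Sel1L Syn-Cre replicate 1.

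Stress genes were compared first with those of OPC nuclei. In its own fit the OPC class had 207 of 11269 genes higher (1.84%) and 179 lower (1.59%), and 24 of 28 integrated stress response genes and 16 of 29 chaperone genes were among the higher ones. Astrocyte nuclei had 0.859% of genes higher and 0.351% lower in their own fit, and neuron nuclei 0.205% and 0.0513%. The change of Nupr1 was 5.94 in members and 7.14 in OPC nuclei on the log2 scale (difference -1.31 ± 1.19, adjusted p = 0.8 by edgeR), and it was 5.48 above that in astrocyte nuclei (adjusted p = 0.00615) and 4.07 above that in neuron nuclei (adjusted p = 0.000513). Of 29 integrated stress response genes tested against OPC nuclei, the change in members was above that in OPC nuclei for 0 and below it for 3 (Slc7a5, Slc3a2 and Mthfd2, of which Mthfd2 alone rose in members), and for Mthfd2 the difference was -1.54 ± 0.26 (adjusted p = 0.00691). Against neuron nuclei, Asns, Nupr1, Cebpg and Yars rose more in members (4 of 34 tested). The differences without the library labelled Sel1L flox/flox replicate 1 passed for Nupr1 from astrocyte (5.49, adjusted p = 0.0299) and neuron nuclei (3.53, 0.00115) and for Mthfd2 from OPC nuclei (-1.65, 0.0117), and missed for Asns (0.0815), Cebpg (0.667) and Yars (0.356) from neuron nuclei. Cebpg and Yars passed in 0 of the 4 leave-one-out fits, and Asns also missed without Sel1L Syn-Cre replicate 2 (0.416). The difference for Slc7a5 missed without the library labelled Sel1L flox/flox replicate 1 (0.0684) or Sel1L Syn-Cre replicate 1 (0.081), and that for Slc3a2 without Sel1L flox/flox replicate 2 (0.0695) or Sel1L Syn-Cre replicate 1 (0.134). Hspa5 and Sel1l did not differ past the threshold between members and OPC nuclei (differences of -0.37 ± 0.26 and -0.37 ± 0.22), which does not show that they changed alike.

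Glucocorticoid-responsive genes were compared in the same way. The change in members was above that in neuron nuclei for 8 of 28 tested genes, beside 0.654% of all genes, and these were Fkbp5, Sgk1, Zbtb16, Plin4, Cdkn1a, Hif3a, Arrdc2 and Arl4d. Against OPC nuclei it was above for 2 and below for 1 of 26 genes, beside 0.44% and 0.265% of all genes. Against astrocyte nuclei it was above for 1 of 29, beside 0.263%. In their own fits, 8 of 22 genes of the list rose in OPC nuclei (median log2 fold change 0.81), 5 of 28 in astrocyte nuclei (0.73) and 0 of 28 in neuron nuclei (0.30). Of all genes, 1.84%, 0.859% and 0.205% rose in these fits. For Sgk1 the change exceeded that in neuron nuclei by 2.60 (adjusted p = 2.82e-05) and that in OPC nuclei by 2.51 (adjusted p = 0.0043). Fkbp5 also rose more in members than in OPC nuclei, by 1.42 (adjusted p = 0.0121), and its difference from astrocyte nuclei, -0.40, did not pass (adjusted p = 0.767). The difference for Sgk1 without the library labelled Sel1L flox/flox replicate 1 was 1.78 from neuron nuclei (adjusted p = 8.11e-09) and 1.67 from OPC nuclei (0.000448), and that for Fkbp5 was 1.38 from neuron nuclei (2.66e-05) and no longer passed against OPC nuclei (1.14, 0.111), nor did it without Sel1L Syn-Cre replicate 2 (1.13, 0.0692). Against neuron nuclei Zbtb16 (0.746), Plin4 (0.318) and Arl4d (0.32) missed without the library labelled Sel1L flox/flox replicate 1. Without Sel1L Syn-Cre replicate 2, Zbtb16 (0.372), Plin4 (0.532), Cdkn1a (0.312), Arrdc2 (0.265) and Arl4d (0.236) did, and Arl4d passed in 0 of the 4 leave-one-out fits.

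Itpr2, Zfand4 and March1 changed in members beyond their change in OPC, astrocyte and neuron nuclei when all libraries were used. Itpr2 rose more than in OPC (1.51, adjusted p = 0.00691), astrocyte (1.49, 0.02) and neuron nuclei (1.22, 0.0115), and Zfand4 more by 3.36, 2.71 and 3.24 (adjusted p = 0.000816, 0.0474 and 2.82e-05). March1 fell more than in OPC (-1.13, 0.0254), astrocyte (-1.49, 0.0254) and neuron nuclei (-1.13, 0.000816). Per3 fell more than in OPC (-1.44, 0.00632) and neuron nuclei (-1.35, 0.000337), and not past the threshold against astrocyte nuclei (-0.70, 0.347). When the library labelled Sel1L flox/flox replicate 1 was left out, the differences given for March1 and Per3 still passed, Itpr2 (0.163) and Zfand4 (1.67, 0.794) missed against astrocyte nuclei, and both passed against OPC and neuron nuclei. The differences for March1 from OPC (0.311) and astrocyte nuclei (0.112) and for Itpr2 from neuron nuclei (0.0869) were lost without Sel1L flox/flox replicate 2, and that for Itpr2 from neuron nuclei also without Sel1L Syn-Cre replicate 1 (0.109). For Zfand4 the difference from neuron nuclei was 1.87 and from astrocyte nuclei 1.69 without Sel1L Syn-Cre replicate 2. For Opalin the difference from neuron nuclei was 1.55 (adjusted p = 0.0116), since its trace level there, 1.95 and 1.52 CPM against 0.273 and 0.261 CPM from 152, 63, 12 and 12 UMIs, fell by more than its level in members. The number of members per library moved with that trace, and its part in the result was not tested. The difference missed without the library labelled Sel1L flox/flox replicate 1 (0.158) and without Sel1L Syn-Cre replicate 1 (0.283).

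**Figure D5:**
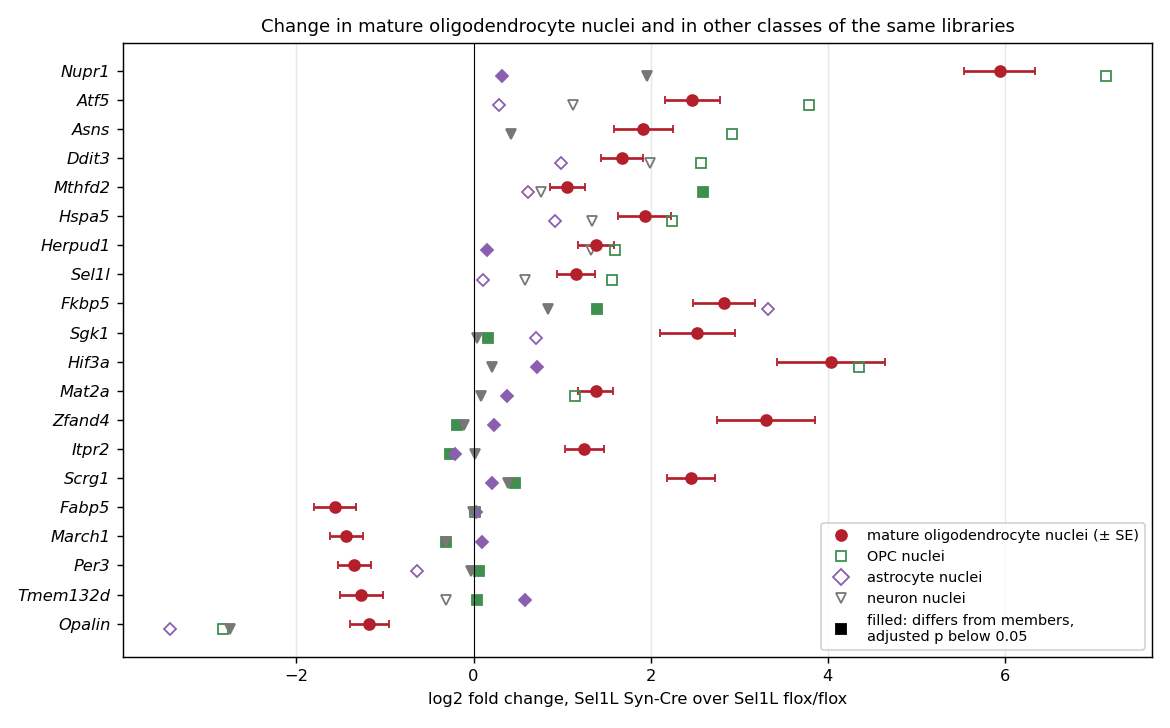
Log2 fold change (Sel1L Syn-Cre over Sel1L flox/flox) of 20 genes in mature oligodendrocyte nuclei (red, ± SE) and in OPC, astrocyte and neuron nuclei of the same libraries, with a filled symbol where the change differs from that in members at an adjusted p below 0.05. Nupr1 rises by 5.94 in members and 7.14 in OPC nuclei, whereas the symbols of Zfand4 and Itpr2 for other classes, each from that class's own fit to all 4 libraries, lie between -0.27 and 0.24.

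RNA of other cells was present in the members and was compared between groups. The 16 neuron markers summed to 6658 and 5665 CPM in the libraries labelled Sel1L flox/flox and to 6376 and 6917 CPM in those labelled Sel1L Syn-Cre, led by Kcnip4, and 0 passed (median log2 fold change 0.08, with 1 higher at an unadjusted p below 0.05). The 12 astrocyte markers summed to 514, 417, 897 and 400 CPM, led by Slc1a2, and 0 of 12 passed (median 0.79, with 3 higher at an unadjusted p below 0.05). Sel1L Syn-Cre replicate 1 was the high library for them, and it was also the high library for the chaperone and ERAD genes that rose, where the part of the astrocyte RNA was not tested. The 12 microglia markers (136, 152, 111 and 151 CPM) and 11 OPC markers (547, 437, 438 and 398 CPM, led by Pcdh15) had medians of -0.25 and -0.07 and 0 calls. The 12 endothelial and mural markers summed to 11.4, 8.61, 35.3 and 23.0 CPM, and of these only Dcn was tested (adjusted p = 0.173), with Kcnj8 at 0.

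In the 2628 members with no UMI of 10 defining astrocyte, microglia and endothelial genes, 26 genes were higher and 3 lower. In that fit the log2 fold changes were 1.96 for Hspa5 (adjusted p = 0.0595), 5.43 for Derl3 (0.0654), 2.61 for Sgk1 (0.0742) and -1.11 for Opalin (0.156), and larger than with all members for Gli2 (4.35, 0.059) and Itpr2 (1.85, 0.044), while Nupr1, Atf5, Ddit3 and Fkbp5 remained past the threshold. With at least 5 of the 7 markers and no neuron UMI required, 11 genes were higher and 3 lower, and Nupr1, Clic5, Col5a3, Fkbp5, Cacna2d4, March1 and Per3 were among them. The same fit gave -1.04 for Opalin (0.14), 2.06 for Hspa5 (0.0824) and 2.25 for Atf5 (0.0824).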

How the data were processed

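Nuclei of cortex and hippocampus were profiled in 4 libraries, 2 per group, each from 1 mouse. The deposited matrices hold raw UMI counts per gene and barcode, which the authors made with Cell Ranger 6.1.0 on GRCm38 (submitters' processing notes); use of intronic reads and of strand is not given in the sources used here. Nothing was normalized before deposit.

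Nuclei were kept and members chosen by the UMI criteria given above, in Python 3.11.15 with scanpy 1.11.5. The other classes were also set by UMI criteria, which are not listed here, and 13628 of 36094 kept nuclei fell in no class. No doublets were removed in the main analysis (Scrublet marked 91, 43, 25 and 18 members). Counts of the members were summed per library and tested with edgeR 4.0.16 in R 4.3.3 (filterByExpr, TMM factors, quasi-likelihood F test, Benjamini-Hochberg adjustment, prior count 0.125). Unless another test is named, every adjusted p is from this test. Differences between classes were tested as a class by genotype interaction with the library as a block. Shares were compared by an exact permutation test of the 4 libraries. On simulated counts for the members, the edgeR step recovered 22 of 50 genes changed by a log2 fold of 1 and 45 of 50 changed by 2. It called 10 unchanged genes among 11873. The simulation gave all genes the same fixed spread between libraries (dispersion), which was not estimated from these data. It changed only genes above a set mean count, so its figures do not cover genes with few UMIs or with wide spread between libraries.

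The named genes were the 10 with the largest log2 fold change in each direction with at least 50 UMIs, up to 6 called genes and the 2 most abundant of each list, Sel1l, Cre and the genes of the membership criteria; other named genes were chosen after their values were seen. The members, the lists and the named genes' rule were chosen with earlier results of these data known. Alternatives were DESeq2 1.42.0, other count filters, no TMM, thinning, equal numbers of nuclei, stricter membership, Scrublet, the replicate number as a block and leaving out each library. An alternative without nuclei holding UMIs of other cell types' markers was added after seeing the data. Positions are from GENCODE vM21 on GRCm38, which matched 32158 of 32286 features by ID. Values of some genes are not reported here.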

Additional observations from a re-analysis of the deposited data

Results flagged for a closer look

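The change between genotypes in mature oligodendrocyte nuclei differed from that in another class of the same libraries, by the interaction term, for several of the genes with the largest changes. The log2 fold change of Nupr1 exceeded that in astrocyte nuclei by 5.48 (adjusted p = 0.00615 by edgeR), that of Hif3a by 3.22 (0.00715) and that of Gli2 by 3.52 (0.0126). For Zfand4 the excess was 3.36 over OPC nuclei (0.000816) and 2.71 over astrocyte nuclei (0.0474). Among the genes that fell, the change in members lay below that in astrocyte nuclei by -1.55 for Fabp5 (0.0336), -1.49 for March1 (0.0254) and -1.91 for Tmem132d (0.0433). Against OPC nuclei the differences were -1.13 for March1 (0.0254), -1.44 for Per3 (0.00632) and -1.33 for Tmem132d (0.0266). Without the library labelled Sel1L flox/flox replicate 1, the differences from astrocyte nuclei passed for Nupr1 (5.49, 0.0299), Hif3a (2.64, 0.0299) and March1 (-1.91, 0.0299), and missed for Gli2 (2.77, 0.0964), Zfand4 (1.67, 0.794), Fabp5 (-1.68, 0.114) and Tmem132d (-1.64, 0.467). Against OPC nuclei Zfand4, March1 and Per3 passed and Tmem132d missed (-1.17, 0.201). March1 missed against both classes without Sel1L flox/flox replicate 2 (0.311 and 0.112), Fabp5 missed there (0.0848) and without Sel1L Syn-Cre replicate 1 (0.0532), and Tmem132d missed against OPC (0.0992) and astrocyte nuclei (0.109) without Sel1L Syn-Cre replicate 1. Without Sel1L Syn-Cre replicate 2 the difference for Zfand4 from astrocyte nuclei was 1.69 (0.0025). Without the library labelled Sel1L flox/flox replicate 1, 5 genes in all differed from astrocyte nuclei, beside 46 with all 4 libraries.

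The Cre transgene, which no comparison of the members used, had 490 UMIs in kept nuclei of the library labelled Sel1L flox/flox replicate 1 and 0 in that labelled Sel1L flox/flox replicate 2.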

How the results depend on the processing

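All called genes kept their direction in every fit that tested them. The difference in the share of kept nuclei was -7.55 to -8.35 percentage points with 1 library left out, -9.44 with nuclei thinned to 1500 UMIs and -6.76 with at least 5 markers and no neuron UMI. The difference in members per OPC was -3.75 after thinning. The difference in median UMIs of members ranged from -582.75 to 120.25 and turned sign without the library labelled Sel1L flox/flox replicate 1.

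Counts of called genes moved more. Beside 70 higher and 19 lower, they were 243 and 220 with at least 1 count in total, 37 and 7 with 292 nuclei per library, 11 and 3 with the stricter membership, 26 and 3 without nuclei holding other cell types' markers, 57 and 39 with DESeq2, 77 and 32 with sums thinned to the smallest total, and 75 to 168 and 9 to 110 with 1 library left out. In such fits the lone library is assumed to vary like the other group. Of the 89 called genes DESeq2 called 57.

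The genes whose change differed from OPC (85), neuron (200) and astrocyte nuclei (46) numbered 21, 57 and 17 with DESeq2, 231, 333 and 198 with at least 1 count, 48, 31 and 10 after thinning, and 61 to 126, 89 to 201 and 5 to 187 with 1 library left out.

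The libraries share replicate numbers, but the labels do not say that these pair the mice. With the replicate block, 146 genes were higher and 115 lower, and the deviations of same-numbered libraries correlated at 0.16 over 11900 genes. Xist stood at 0 and 15.7 CPM in members of both libraries numbered 1 and at 1764 and 1529 CPM in those numbered 2.

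With 2 libraries per group and 292 to 1469 members in each, small changes can be missed. On simulated counts with the fixed dispersion, 22 of 50 genes changed by a log2 fold of 1 were recovered. How this depends on a gene's level or spread was not tested.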

Other observations

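Clock genes were looked at after Per3 was seen among the genes that fell, so they were chosen with their values in view. Nr1d2, which encodes the nuclear receptor REV-ERB beta, a repressor of the clock, stood at 95.6 and 99.9 CPM in the libraries labelled Sel1L flox/flox and at 46.0 and 43.7 CPM in those labelled Sel1L Syn-Cre, with a log2 fold change of -1.12 ± 0.18 (adjusted p = 0.0201 by edgeR). Arntl, the gene of the activator BMAL1, stood at 16.3 and 11.1 CPM against 36.03 and 37.9 CPM (1.39 ± 0.26, adjusted p = 0.0472), and its call was lost without Sel1L Syn-Cre replicate 2 (0.115), with DESeq2 (0.145), with at least 5 markers and no neuron UMI required and without nuclei holding other cell types' markers (0.154). Nr1d2 missed in the last 2 of these fits (0.0824 and 0.059) and with equal numbers of nuclei (0.0716). Ciart (-1.75 ± 0.35, adjusted p = 0.0535) and Dbp (-1.68 ± 0.44, adjusted p = 0.152) did not pass, and Per1 (0.42), Per2 (0.07), Cry1 (0.62) and Nr1d1 (-0.54) did not either. The hour at which each mouse was killed is not given in the sources used here.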
